A study of Mus musculus with 2 samples.

Results

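Expression of 10 genes of MHC class II antigen presentation was examined in single leukocytes of Ptgs-/- melanomas, across dendritic cells (DCs), B cells and monocyte/macrophage states and between hosts with and without natural killer (NK) cells. The genes were taken by symbol from a fixed list and not by a cut on their measured values. The list was chosen with earlier results of these data known, and all 10 genes were found among the 31053 genes of the count matrices. They were H2-Aa, H2-Ab1, H2-Eb1, Cd74, H2-DMa, H2-DMb1, H2-DMb2, H2-Oa, H2-Ob and Ciita. The tumors were Braf-mutant melanomas made deficient in Ptgs, the genes of the cyclooxygenases that make prostaglandins, although the genotype label of both samples reads wildtype. They grew in C57BL/6 hosts 8 weeks old and were taken on day 4. Control hosts were untreated, and NK cell-depleted hosts were injected on days 0 and 2 with anti-NK1.1 (200 µg) and anti-asialo GM1 (30 µg) antibodies. Neither antibody binds NK cells alone, since NK1.1 and asialo GM1 are also found on some other leukocytes. The pooled tumors of a group were sorted for living cells with the pan-leukocyte surface protein CD45, and both samples also hold added parental melanoma cells. Each group was 1 library, so no difference between groups has a replicate check, none was tested, and every interval given is a 95% interval for counting error alone.

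MHC class II molecules are pairs of an alpha and a beta chain that present peptides from endosomes to CD4+ T cells. In C57BL/6 mice the surface molecule is formed by the chains of H2-Aa and H2-Ab1, and H2-Eb1 is transcribed although the alpha chain that would pair with it is not made. Cd74 encodes the invariant chain, which fills the peptide groove until the molecule reaches the endosome. H2-DM, formed from H2-DMa with H2-DMb1 or H2-DMb2, then exchanges the remaining fragment for other peptides, and H2-DO, formed from H2-Oa and H2-Ob, restrains H2-DM. Ciita encodes the transactivator of the chain, Cd74 and H2-DM genes. DCs and B cells express it constitutively, whereas macrophages do so largely after interferon-gamma, a product of NK and T cells.

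The gene set is compact in the genome. In the mm10 build named by the submitters' processing notes (GRCm38, GENCODE annotation), 8 of the 10 genes lie within 224 kb of chromosome 17, from H2-Oa (start 34092340) to H2-Eb1 (end 34316674). Ciita lies on chromosome 16 (10480059 to 10528418). Promoter windows of 300 bases, from 250 before to 50 after the annotated start (RefSeq, GRCm38.p6), were on hand for 7 genes, with 2 windows for H2-DMa. The windows were searched on both strands for TGATTGG, the core of the Y box bound by NF-Y, and for GNAAC, a part of the X box bound by the RFX complex, through which the CIITA protein is recruited. The sequences below are the stretches with the Y box in the 6 genes that held it, 5 of them with the X box letters, and are shown to set the genes' promoters side by side. H2-DMb2, H2-Oa and H2-Ob were distributed over cell classes unlike the others. Each runs 5′ to 3′ on the strand of its gene, and capitals mark the X box letters and the Y box.
H2-Aa (chr17:34287859-34287912, minus strand): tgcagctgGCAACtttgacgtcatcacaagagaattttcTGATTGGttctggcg
H2-Eb1 (chr17:34305768-34305820, plus strand): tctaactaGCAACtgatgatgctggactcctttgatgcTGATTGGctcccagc
H2-DMb1 (chr17:34153089-34153142, plus strand): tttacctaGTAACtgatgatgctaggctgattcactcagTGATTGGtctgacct
H2-Oa (chr17:34092295-34092348, plus strand): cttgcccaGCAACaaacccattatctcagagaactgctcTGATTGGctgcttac
H2-Ob (chr17:34238810-34238860, plus strand): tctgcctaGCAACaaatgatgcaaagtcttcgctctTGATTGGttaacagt
H2-DMb2 (chr17:34145109-34145171, plus strand): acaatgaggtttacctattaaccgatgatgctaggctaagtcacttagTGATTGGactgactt

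Y box letters stood 45 to 92 bases before the annotated start in these 6 genes. In 5 of them GNAAC lay 23 to 26 bases upstream of the Y box. H2-DMb2 held the Y box without GNAAC at 20 to 45 bases from it, and neither H2-DMa window held the Y box. Among all 32851 promoter windows of the same length, 7.82% held TGATTGG, 84.8% held GNAAC, and 0.712% held the pair on 1 strand at that spacing. A match in these letters describes the window and is not evidence of binding.

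After the cell filter, 5292 control cells with 24810009 unique molecular identifiers (UMIs, each a distinct transcript molecule) and 4506 NK cell-depleted cells with 23245982 UMIs remained. The medians were 4170 and 4893 UMIs per cell, and 5 barcodes occurred in both libraries. Cells were clustered without class II, other H2 and interferon-related genes and named by marker genes that include no class II gene, with the suffix -like. This gave 3453 control and 3155 NK cell-depleted monocyte/macrophage-like cells in 11 clusters, 242 and 309 conventional DC-like, 67 and 56 migratory DC-like and 57 and 37 B-like cells. The depletion was seen in the NK-like cells, of which 543 were control cells and 1 was NK cell-depleted. A cluster of 109 and 62 cells led by Cdh1, Plet1 and Ifitm1 held 5 conventional DC markers among its 50 leading genes and stayed unnamed. Its separation depended on the processing chosen. The conventional DC-like class held 354 and 377 cells at resolution 0.5 and 355 and 374 without upper limits. It held 349 and 369 with all variable genes in the clustering. Whether the class then took in the Cdh1 cluster was not examined. Levels are given in CPM, the counts per 1000000 UMIs of a class in a library. The 7 markers of the cDC2 subtype summed to 1912 and 2946 CPM in the Cdh1 cluster and to 2084 and 2128 CPM in conventional DC-like cells.

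To compare cell types, the level of each gene was set side by side in all classes. Set against whole classes, the unnamed Cdh1 cluster was highest, with 37873 CPM (37449 to 38300) of the 10 genes together in the control library and 37167 CPM (36600 to 37740) in the NK cell-depleted library. Conventional DC-like cells followed with 28180 CPM (27902 to 28461) and 30665 CPM (30424 to 30908), and migratory DC-like cells with 22192 CPM (21721 to 22670) and 20919 CPM (20422 to 21424). Monocyte/macrophage-like cells had 13680 CPM (13628 to 13733) and 12321 CPM (12271 to 12372). B-like cells had 12240.1 CPM (11604 to 12902) and 15825 CPM (14902 to 16790), so that the order of these last 2 classes was turned between the libraries. Monocyte/macrophage-like cells, 65.2% and 70.0% of the cells, held 75.5% (75.3 to 75.6) of all class II UMIs in the control library and 72.3% (72.1 to 72.4) in the NK cell-depleted library. Conventional DC-like cells, 4.57% and 6.86% of the cells, held 11.3% and 19.4%, and the Cdh1 cluster, 2.06% and 1.38% of the cells, held 8.81% and 5.17%.

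Cells that should not make class II set the background. T-like cells had 422 CPM (373 to 475) and 537 CPM (479 to 601) of the 10 genes together, and neutrophil-like cells 1068 CPM (975 to 1167) and 716 CPM (651 to 785). H2-Aa was detected in 9.44% and 12.1% of T-like cells at median depths of 2084.5 and 2333 UMIs. In monocyte/macrophage-like cells it was detected in 63.0% (61.4 to 64.7) and 66.2% (64.5 to 67.9), at 5038 and 5463 UMIs. With every cell thinned to 2000 UMIs and 327 and 241 monocyte/macrophage-like cells below that depth left out, the shares were 58.7% and 60.3%, against 10.1% and 10.3% of T-like cells.

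**Figure D1:**
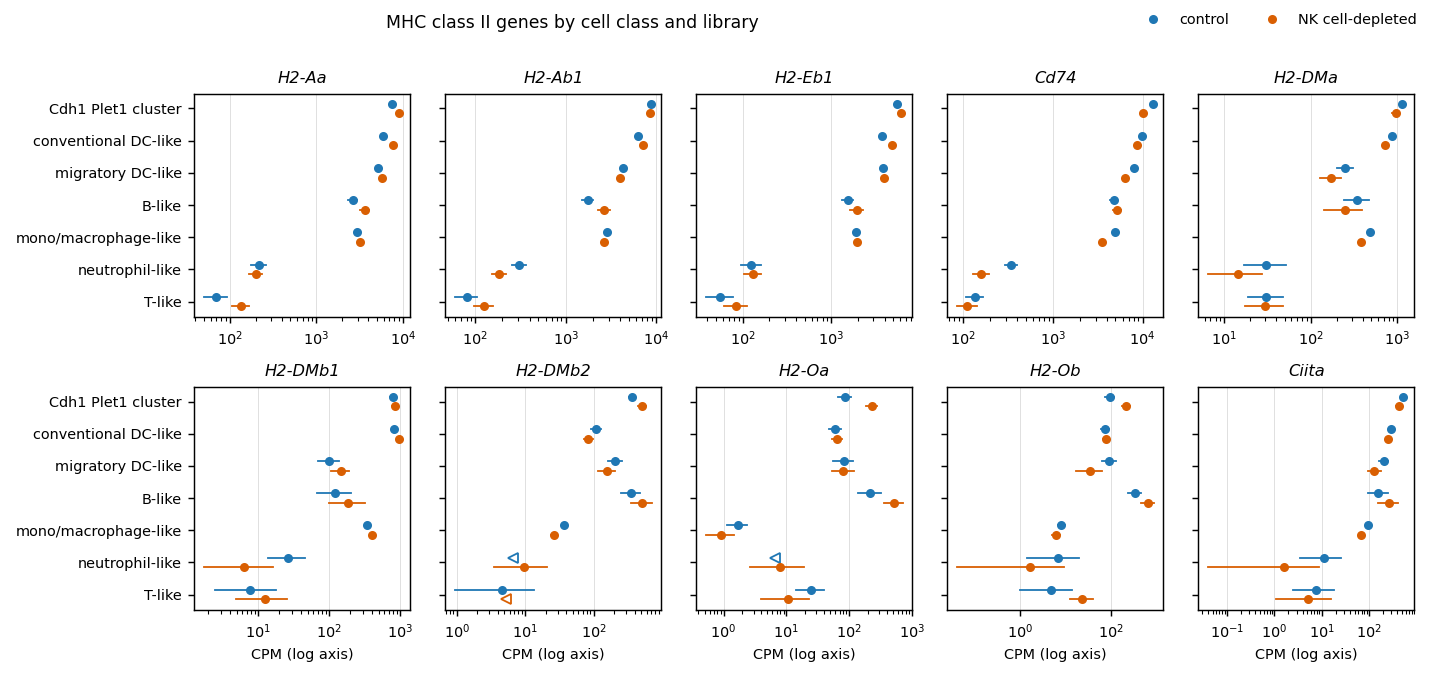
Level of each of the 10 genes (CPM, log axis) in 7 cell classes of the control (blue) and NK cell-depleted (orange) libraries, 1 library each. Lines are exact Poisson 95% intervals and open triangles mark a count of 0 at the level of 3 UMIs. The chains, Cd74 and Ciita are highest in the Cdh1 cluster and lowest in neutrophil-like and T-like cells, while H2-Oa and H2-Ob are highest in B-like cells. For H2-DMb2 the Cdh1 cluster and B-like cells lie close together, above conventional and migratory DC-like cells.

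The 3 chain genes and Cd74 (chromosome 18, 60803848 to 60812652) had much the same distribution. H2-Aa, the alpha chain of the surface molecule, ran from 7576 and 9158 CPM in the Cdh1 cluster to 5855 and 7757 CPM in conventional DC-like, 5142 and 5766 CPM in migratory DC-like and 2931 and 3241 CPM in monocyte/macrophage-like cells (control and NK cell-depleted in that order). H2-Ab1, the matching beta chain, was at 8751 and 8657 CPM in the Cdh1 cluster, 6386 and 7238 CPM in conventional DC-like cells and 2890.0 and 2656 CPM in monocyte/macrophage-like cells. Over 32 points (16 clusters of at least 50 cells in both libraries, each library its own point), H2-Aa and H2-Eb1 correlated with r = 0.994 and H2-Aa and Cd74 with r = 0.982 on the log2(CPM + 1) scale. These points share libraries and differ in depth, so the coefficients are a description.

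Ciita, like the chains, was higher in the Cdh1 cluster than in any whole class. It was at 516 CPM (467 to 568) and 428 CPM (369 to 494) in the Cdh1 cluster, 297 CPM (269 to 327) and 248 CPM (226 to 270) in conventional DC-like cells and 97.9 CPM (93.5 to 102) and 68.2 CPM (64.5 to 72.1) in monocyte/macrophage-like cells. B-like cells, in which the chains were well below both DC classes, had Ciita at 259.9 CPM (154 to 411) in the NK cell-depleted library, with an interval that spans the level of conventional DC-like cells, and at 159 CPM (94.1 to 251) in the control library, from 18 UMIs in each. T-like cells had 7.73 and 5.30 CPM, from 5 and 3 UMIs. Its correlation with the summed chains and Cd74 over the 32 points was 0.913.

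The genes of peptide editing had another distribution. H2-DMa, the alpha chain of H2-DM, was at 859 and 721 CPM in conventional DC-like cells but at 249 CPM (202 to 305) and 171 CPM (129 to 222) in migratory DC-like cells. H2-DM genes together gave 146 and 119 UMIs per 1000 UMIs of H2-Aa and H2-Ab1 in conventional DC-like cells, and 59.0 and 48.4 in migratory DC-like cells. Plasmacytoid DC-like cells, 26 and 21 cells within the conventional DC-like cluster, stood at the other end with 429 and 707.

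The beta chain UMIs of H2-DM were mostly H2-DMb1 in monocyte/macrophage-like cells and mostly H2-DMb2 in B-like cells, and in migratory DC-like cells of the control library. H2-DMb2 made up 9.71% (9.04 to 10.4) and 6.09% (5.58 to 6.63) of the H2-DMb1 and H2-DMb2 UMIs of monocyte/macrophage-like cells, and 11.7% (10.0 to 13.6) and 7.92% (6.81 to 9.14) of those of conventional DC-like cells. In the Cdh1 cluster the share was 31.4% (28.4 to 34.5) and 37.7% (33.9 to 41.7). In migratory DC-like cells it was 67.5% (58.2 to 75.9) and 52.0% (41.7 to 62.2), and in B-like cells 74.1% (60.3 to 85.0) and 72.9% (58.2 to 84.7). Among the monocyte/macrophage-like clusters it ran from 1.60% to 18.4% in the control library and from 1.18% to 14.99% in the NK cell-depleted library. The 2 genes are close copies. Of the 50-base windows in the last 500 bases of H2-DMb1, 20.4% also occur in an annotated H2-DMb2 transcript. Of those in the last 500 bases of H2-DMb2, 0% occur in the annotated H2-DMb1 transcript. The split between the genes is thus uncertain in part.

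The levels of the H2-DO genes were highest in B-like cells. H2-Oa was at 212 CPM (136 to 315) and 505 CPM (352 to 703) in B-like cells, 59.1 and 63.6 CPM in conventional DC-like cells and 1.67 CPM (1.14 to 2.36) and 0.914 CPM (0.532 to 1.46) in monocyte/macrophage-like cells. Monocyte/macrophage-like cells still held 11.7% and 5.31% of all H2-Oa UMIs of their libraries and 36.6% and 26.1% of the H2-Ob UMIs. H2-Ob was at 327 CPM (230 to 450) and 635 CPM (462 to 853) in B-like cells, 74.2 and 76.0 CPM in conventional DC-like cells and 8.00 and 6.02 CPM in monocyte/macrophage-like cells. H2-DO genes made up 39.6% (31.8 to 47.8) and 54.9% (46.4 to 63.2) of the H2-DO and H2-DM UMIs of B-like cells, 23.5% (18.6 to 28.9) and 19.5% (14.1 to 25.8) of those of migratory DC-like cells, and 1.10% and 0.844% of those of monocyte/macrophage-like cells. In T-like cells, from few UMIs, the share was 40.4% (26.4 to 55.7) and 44.2% (29.1 to 60.1). H2-Oa was counted there at 24.7 CPM (14.1 to 40.2) and 10.6 CPM (3.89 to 23.1), from 16 and 6 UMIs, and in control NK-like cells at 14.2 CPM (8.53 to 22.1), from 19 UMIs. In the control library, T-like cells thus held 16 H2-Oa UMIs beside 45 of H2-Aa, where monocyte/macrophage-like cells held 32 beside 56045.

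**Figure D2:**
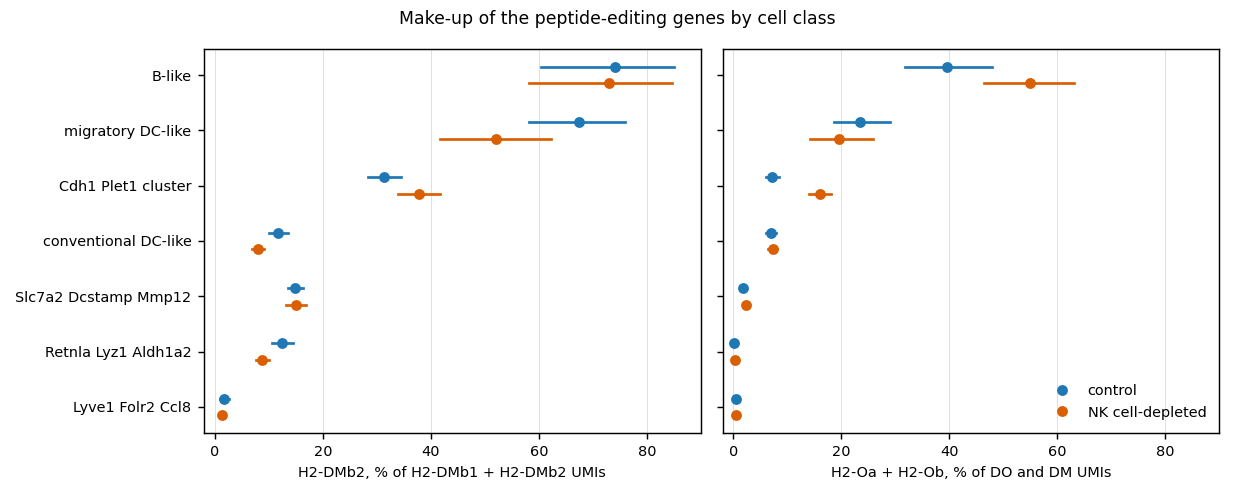
Share of H2-DMb2 among H2-DMb1 and H2-DMb2 UMIs (left) and of H2-Oa and H2-Ob among all H2-DO and H2-DM UMIs (right), in percent, by class or cluster and library. Lines are exact binomial 95% intervals for counting error. Among the rows drawn, both shares are highest in B-like cells and next in migratory DC-like cells, and the H2-DO share is at most 2.30% in the 3 monocyte/macrophage-like rows.

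Within the conventional DC-like cluster, some sub-clusters could be named by subtype. The cDC2-like name is the less firm, with 1 cDC2 marker among its 50 leading genes within the cluster. Set against the cDC1-like and plasmacytoid DC-like cells it held 4. By the latter comparison, unnamed sub-clusters of 84 and 57 cells and of 34 and 62 cells held 3 cDC2 markers each. cDC1-like cells (32 and 50), marked by Xcr1 and Tlr3, and cDC2-like cells (25 and 72) carried a UMI of H2-Aa in 98.6% or more of the cells. The 10 genes together reached 29034 CPM (28357 to 29724) and 28310 CPM (27773 to 28855) in cDC1-like cells and 36456 CPM (35404 to 37532) and 37365 CPM (36788 to 37949) in cDC2-like cells, whose counting intervals overlapped those of the Cdh1 cluster in both libraries. Plasmacytoid DC-like cells had 8604 CPM (8116 to 9113) and 6318 CPM (5872 to 6789). H2-Ob was at 141 CPM (97.9 to 198) and 174 CPM (134 to 222) in cDC1-like cells against 80.2 CPM (38.5 to 147) and 117 CPM (86.8 to 154) in cDC2-like cells, while H2-Oa was at 49.9 CPM (25.8 to 87.2) and 61.6 CPM (39.0 to 92.4) against 128 CPM (73.3 to 208) and 149.7 CPM (115 to 191). For these H2-DO genes the counting intervals of the subtypes were apart only for H2-Oa in the NK cell-depleted library. A further sub-cluster of 37 and 40 cells held 5 monocyte/macrophage markers among its leading genes and, like 3 others, was left unnamed. The summed level of 20 monocyte/macrophage markers in the whole cluster was 4359 and 4288 CPM.

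To examine how class II varied among tumor macrophages, those 10 clusters of the class that held 50 or more cells in each library were ranked. Class II genes took no part in forming these clusters. The highest level was 12.4 times the lowest in the control library and 11.7 times in the NK cell-depleted library. In the control library cells marked by Slc7a2, Dcstamp and Mmp12 led with 24283 CPM (24130.3 to 24436), followed by cells marked by Retnla, Lyz1 and Aldh1a2 with 23552 CPM (23266 to 23841) and Lyve1, Folr2 and Ccl8 cells with 19451 CPM (19291 to 19612). In the NK cell-depleted library the first 2 changed places, at 20036 CPM (19840 to 20234) for the Slc7a2 cells and 22714 CPM (22491 to 22940) for the Retnla cells, and the Lyve1 cells again came next with 17542 CPM (17425 to 17660). The lowest 3 clusters kept 1 order in both libraries. Cells marked by Pf4, Itga9 and Stab1 had 8273 and 6350.0 CPM, cells marked by Pf4, Arg1 and Pdpn had 4963 and 4280 CPM, and Gpnmb, Mmp13 and Spp1 cells had 1955 CPM (1885 to 2027) and 1939 CPM (1857 to 2023). No neighbours in either order had overlapping counting intervals.

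**Figure D3:**
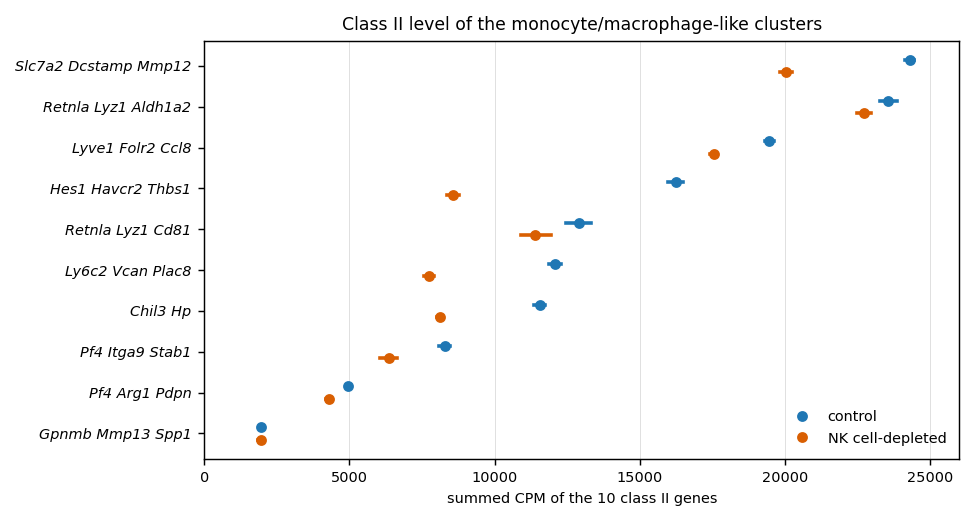
Summed level of the 10 class II genes (CPM, linear axis from 0) in 10 monocyte/macrophage-like clusters, named by 2 or 3 marker or leading genes, in the control (blue) and NK cell-depleted (orange) libraries. Lines are exact Poisson 95% intervals for counting error. The 2 libraries lie close together in the Gpnmb Mmp13 Spp1 cells and furthest apart, at 16227 and 8571 CPM, in the Hes1 Havcr2 Thbs1 cells.

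Cells of 1 cluster differed widely. Per 2000 UMIs, cells marked by Retnla, Lyz1 and Aldh1a2 had a median of 46 class II UMIs (10th to 90th percentile 23 to 74) in the control library and 42 (21.1 to 72.9) in the NK cell-depleted library, with no cell at 0. Pf4 Arg1 Pdpn cells had a median of 1 in both libraries, but their 90th percentiles were 34 and 29. In the Cdh1 cluster the distribution was narrow, with medians of 75 (53.6 to 104) and 78 (50.1 to 98.9).

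Detection of Ciita split these mixed clusters. In monocyte/macrophage-like cells thinned to 2000 UMIs, 409 of 3126 control cells (13.1%) and 330 of 2914 NK cell-depleted cells (11.3%) held a Ciita UMI, against 2 of 159 and 0 of 145 T-like cells. Those with a Ciita UMI had a median of 51 (interquartile range 33 to 64) and 40 (23.25 to 59) UMIs of the other 9 genes, and those without had 6 (1 to 39) and 7 (1 to 34). Pf4 Arg1 Pdpn cells with a Ciita UMI, 28 and 11 in number, had medians of 41.5 and 22, against 1 in those without in both libraries. In the Cdh1 cluster, where 68.8% and 61.3% of the cells held a Ciita UMI, the medians with and without were 78 and 71 in the control library and 77.5 and 78 in the NK cell-depleted library. In Retnla Lyz1 Aldh1a2 cells they were 40.5 and 47 in the control library and 43 and 42 in the NK cell-depleted library. Ciita is a low transcript, so a cell without its UMI may still express it.

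**Figure D4:**
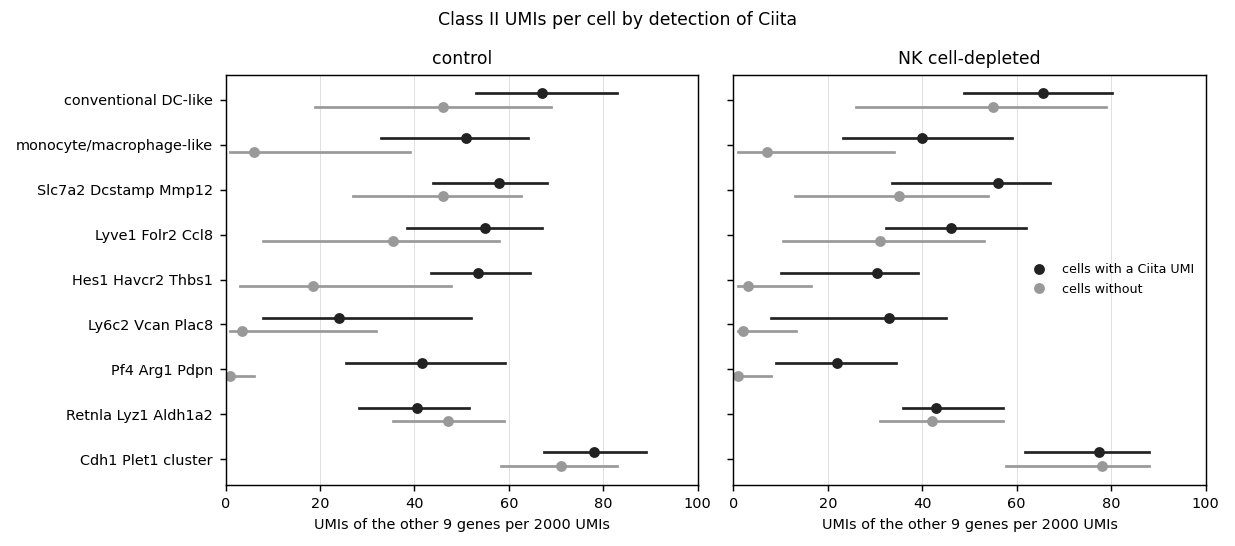
UMIs of the other 9 class II genes per cell, with every cell thinned to 2000 UMIs, in cells with (black) and without (grey) a Ciita UMI, by class or cluster, for the control (left) and NK cell-depleted (right) libraries. Points are medians over cells and lines interquartile ranges. The medians are far apart in the Pf4 Arg1 Pdpn, Ly6c2 Vcan Plac8 and Hes1 Havcr2 Thbs1 cells and close in the Retnla Lyz1 Aldh1a2 cells and the Cdh1 cluster.

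Next, the libraries were compared to ask whether class II levels differed when NK cells had been depleted. In monocyte/macrophage-like cells as a whole the set moved little, and in different directions. Cd74 was at 4964 CPM (4933 to 4996) in control and 3557 CPM (3530 to 3584) in NK cell-depleted tumors, a log2 ratio of 0.48 (0.47 to 0.50), and Ciita was at 97.9 and 68.2 CPM, a log2 ratio of 0.52 (0.42 to 0.63). H2-Aa was at 2931 CPM (2907 to 2956) and 3241 CPM (3215 to 3267), a log2 ratio of -0.14 (-0.16 to -0.13), and H2-DMb1 had a log2 ratio of -0.22 (-0.27 to -0.18). The members' median log2 ratio, control over NK cell-depleted, was 0.37, where the median of all 11807 genes with at least 20 UMIs was -0.01. The members' median was 0.18 with cells thinned to 2000 UMIs and 0.06 with the level of each gene in neutrophil-like cells subtracted. Both rest on 9 members, without H2-Oa. Under the subtraction the ratios were 1.16 for H2-DMb2, 0.44 for Cd74, 0.38 for Ciita, 0.30 for H2-DMa and 0.06 for H2-Ab1. They were -0.04 for H2-Eb1, -0.16 for H2-Aa, -0.32 for H2-DMb1 and -1.65 for H2-Ob. By a threshold of 1.5-fold, 1 of 10 members (H2-Oa, from 32 and 17 UMIs, with an interval of -0.02 to 1.81) was higher in the control library and 0 were lower. Of all genes 8.36% were higher and 3.83% lower by that rule.

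The class total averaged over states of different share. Lyve1 Folr2 Ccl8 cells were 13.1% of the class in control and 21.6% in NK cell-depleted tumors, and Pf4 Arg1 Pdpn cells were 23.9% and 11.8%. Compared within clusters, the summed class II level was higher in the control library in 10 of 10, with log2 ratios from 0.01 to 0.92, and beyond the counting interval in 9. Another weighting gave all 11 clusters of the class, the smallest of 21 and 33 cells included, the same weight in both libraries. With it the H2-Aa ratio turned from -0.14 to 0.086 and the H2-Eb1 ratio from -0.04 to 0.079. Cd74 was higher in the control library in each of the 10 clusters, by log2 ratios of 0.20 to 1.20, each beyond its counting interval. It was the only 1 of the 6 members with at least 20 UMIs in every cluster to be on 1 side throughout. Of 2752 genes with that many UMIs, 8.36% were higher in the control library in every cluster and 8.1% were lower in every cluster.

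Among the clusters of the class with 50 or more cells in each library, the ratio of the summed level was largest in 2. In cells marked by Hes1, Havcr2 and Thbs1 the summed level was 16227 CPM (15962 to 16496) in control and 8571 CPM (8367 to 8780) in NK cell-depleted tumors, a log2 ratio of 0.92 (0.88 to 0.96). Here 6 of the 8 members with enough UMIs were past 1.5-fold, among them H2-Aa at 0.69 (0.60 to 0.78), H2-Ab1 at 0.94 (0.85 to 1.03) and Cd74 at 1.20 (1.12 to 1.27), where 8.71% of all genes were higher by that rule. In cells marked by Ly6c2, Vcan and Plac8, genes of inflammatory monocytes, the sums were 12079 and 7732 CPM, a log2 ratio of 0.64 (0.60 to 0.68), and 5 of 8 members were past it, where 8.41% of all genes were. These were H2-Ab1 at 0.76, Cd74 at 0.97, H2-DMa at 0.83, H2-DMb2 at 1.95, from 20 and 5 UMIs, and Ciita at 1.11 (0.73 to 1.51). These 2 clusters were singled out after their values were seen. The smallest cluster of the class, marked by Ace, Adgre4 and Ear2 (21 and 33 cells), was left out of this ranking. From 162 and 147 class II UMIs, its 4 members with enough UMIs were all higher in the control library, where 53.6% of 1419 genes were. Their median log2 ratio was 1.35, against 0.06 for those genes.

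Per cell the Hes1 Havcr2 Thbs1 cells had medians of 27.5 (1 to 66.9) and 5 (0 to 47.4) class II UMIs per 2000 in the control and NK cell-depleted libraries, so that the distributions overlapped while their middles lay apart. Ly6c2 Vcan Plac8 cells had medians of 10.5 and 3. Depth was close, at 4584.5 and 4359 UMIs per cell in the former and 2991 and 3259 in the latter. The summed level of the 10 cDC1 markers was 861 and 645 CPM in the Hes1 cells and 1493 and 1161 CPM in the Ly6c2 cells, with Xcr1 at 0 in both libraries of the former and in the control library of the latter. That of the 7 cDC2 markers was 71.8 and 33.5 CPM and 215 and 187 CPM. That of the 10 migratory DC markers was 190.3 and 239.9 CPM in the Hes1 cells and 210.2 and 116 CPM in the Ly6c2 cells. The part of these markers in the class II difference was not tested.

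**Figure D5:**
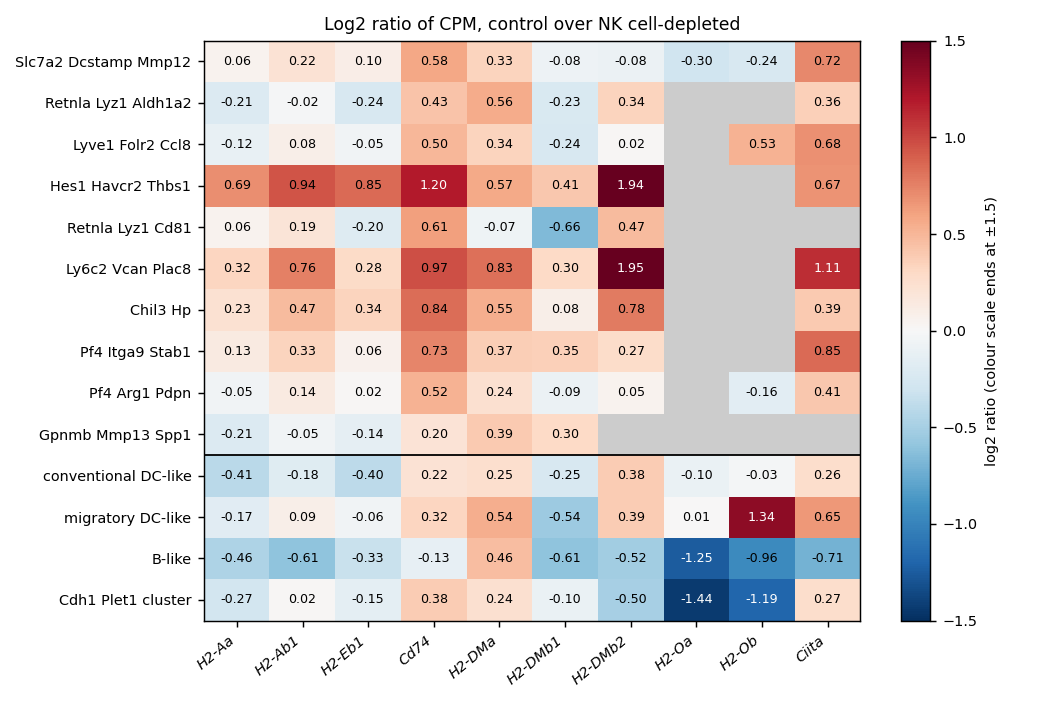
Log2 ratio of CPM, control over NK cell-depleted, of each member (columns) in 10 monocyte/macrophage-like clusters, ordered by control class II level, and in 4 other classes (rows below the line). Red is higher in the control library, blue lower, and grey cells had under 20 UMIs over both libraries. Cd74 is red in all 10 clusters, and the rows of the Hes1 Havcr2 Thbs1 and Ly6c2 Vcan Plac8 cells are red in every member shown.

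The make-up of the set also differed between the libraries. In the 10 clusters there were 1.32 to 1.91 Cd74 UMIs per H2-Aa UMI in the control library and 0.90 to 1.31 in the NK cell-depleted library, so that the ranges did not meet. The control value was higher also in conventional DC-like cells, with 1.70 and 1.11, migratory DC-like cells, with 1.56 and 1.12, and B-like cells, with 1.81 and 1.44. From few UMIs, the same held for T-like cells, with 1.96 and 0.84, and neutrophil-like cells, with 1.59 and 0.81, which set the background. Melanoma-like cells had 1.73 and 0.68, from 37 and 28 H2-Aa UMIs. The origin of the class II UMIs in T-like, neutrophil-like and melanoma-like cells was not tested. In the 10 clusters there were 1.25 to 1.81 H2-DMa UMIs per H2-DMb1 UMI in the control library and 0.745 to 1.64 in the NK cell-depleted library. In conventional DC-like cells these ratios were 1.04 and 0.738.

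In conventional DC-like cells the 3 chains were lower in the control library, whereas Cd74 was again higher. H2-Aa had a log2 ratio of -0.41 (-0.44 to -0.37), H2-Ab1 of -0.18 (-0.22 to -0.14), H2-Eb1 of -0.40 (-0.44 to -0.35), Cd74 of 0.22 (0.18 to 0.25) and Ciita of 0.26 (0.07 to 0.45). None of 10 members was past 1.5-fold, where 8.18% of all genes were higher and 7.55% lower in the control library. The members' median was -0.07, and that of all genes -0.01. The sub-clusters of this class differed in share between the libraries. The cDC2-like cells, with a higher class II level than cDC1-like cells, were 25 of 242 control and 72 of 309 NK cell-depleted cells. Unnamed sub-clusters with cDC2 markers held 84 and 57 cells and 34 and 62 cells. A shift of cDC2 as a whole can therefore not be read from the named cells. In cDC1-like cells H2-Aa was at 6447 CPM (6130 to 6776) and 6885 CPM (6621 to 7156), a log2 ratio of -0.09, and in cDC2-like cells at 7787 CPM (7305 to 8292) and 9522 CPM (9232 to 9819), a log2 ratio of -0.29 (-0.39 to -0.19). Plasmacytoid DC-like cells went the other way, with H2-Ab1 at 1629 CPM (1421 to 1859) and 1112 CPM (930 to 1320).

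Migratory DC-like cells, mature DCs of the kind that travel to lymph nodes, had a median log2 ratio of 0.20, against -0.09 for all genes. Here 2 of 10 members were past 1.5-fold, both higher in the control library, where 10.1% of all genes were higher and 17.1% lower. H2-Ob was at 89.3 CPM (61.8 to 125) and 34.1 CPM, from 34 and 11 UMIs, a log2 ratio of 1.34 (0.37 to 2.52), and Ciita at 205 CPM (162 to 256) and 130.3 CPM (93.9 to 176). In the Cdh1 cluster the H2-DO genes went the other way. H2-Oa was at 84.3 CPM (65.5 to 107) and 229 CPM (186 to 278), a log2 ratio of -1.44 (-1.91 to -0.98), and H2-Ob at 93.0 CPM (73.1 to 117) and 213 CPM (172 to 260), a log2 ratio of -1.19 (-1.65 to -0.74), while the class II sum had a log2 ratio of 0.03, with an interval that includes 0.

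B-like cells, from 57 and 37 cells and 113316 and 69258 UMIs, were lower in the control library for 9 of 10 members. H2-Oa had a log2 ratio of -1.25 (-2.07 to -0.46), H2-Ob of -0.96 (-1.63 to -0.30) and H2-Ab1 of -0.61 (-0.90 to -0.31). By the 1.5-fold rule 5 members were lower and 0 higher, and for H2-DMb1 and Ciita, 2 of the 5, the interval included 0, where 21.4% of all genes were lower and 11.8% higher. The members' median was -0.56, against -0.14 for all genes, and -0.16 with cells marked as doublets left out. That rule marked 86.0% and 91.9% of these cells and left 4 of the 10 members with enough UMIs. All 10 B cell markers were detected in both libraries, at 17103 and 20777 CPM together, and 13 and 10 of the 20 monocyte/macrophage markers were, at 1130 and 1112 CPM, with Ly6c2, Vcan, Chil3 and Ace at 0 in both. The part of these markers was not tested.

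Other genes of the pathway were counted by list. Of 7 genes of the proteins that bind class II promoters (Rfx5, Rfxap, Rfxank, Nfya, Nfyb, Nfyc and Creb1), 0 were past 1.5-fold in monocyte/macrophage-like cells or in conventional DC-like cells, with medians of -0.12 and -0.10. Of 5 antigen-processing genes analysed here (Ctss, Ctsl, Ctsb, Ctsd and Lgmn), 0 passed in monocyte/macrophage-like cells. Ctss, the protease that trims the invariant chain, was at 2388 and 2121 CPM, a log2 ratio of 0.17 (0.15 to 0.19). Among the other lysosomal proteases the whole-class log2 ratios were 0.36 for Ctsl, 0.29 for Ctsd, -0.17 for Ctsb and -0.07 for Lgmn. Within the 10 clusters Ctsb was lower in the control library in 10 and Lgmn in 9, beyond the counting interval in 9 each, and Ctsl was lower in 7, beyond it in 5. In conventional DC-like cells 1 was past it, Ctsl, at 65.6 and 40.3 CPM. Ifi30 was not analysed here.

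Of 3 genes that set the turnover of surface class II, March1 and March8 encode ligases that send it to degradation and Cd83 encodes a protein that opposes them. Cd83 was lower in the control library in all 4 classes compared. It was at 317 and 483 CPM in monocyte/macrophage-like cells, a log2 ratio of -0.61 (-0.66 to -0.56), at 646 and 1176 CPM in conventional DC-like cells, a log2 ratio of -0.86 (-0.98 to -0.75), and at 1423 and 1951 CPM in migratory DC-like cells, a log2 ratio of -0.45. In B-like cells it was at 503 and 823 CPM, a log2 ratio of -0.71 (-1.27 to -0.15), and migratory DC-like cells alone of the 4 were not past 1.5-fold. March1 had ratios of -0.05 and -0.09 in the first 2 classes. March1 was low in migratory DC-like cells, at 2.63 and 9.31 CPM from 1 and 3 UMIs, against 118 and 126 CPM in conventional DC-like cells.

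Of 6 genes of interferon-gamma receptor signaling, 0 were past 1.5-fold in monocyte/macrophage-like cells as a whole. Within the 10 clusters Irf1, a transcription factor induced by interferon-gamma, was higher in the control library in 9, beyond the counting interval in 5. Ifngr1, the receptor chain that binds the cytokine, had a log2 ratio of -0.39 (-0.44 to -0.33) in the whole class. Of 3 costimulation genes, 0 passed in monocyte/macrophage-like cells, and Cd86 was at 110 and 152 CPM, a log2 ratio of -0.46 (-0.55 to -0.38). In conventional DC-like cells Cd86 was past the threshold, at 75.7 and 126 CPM, a log2 ratio of -0.73 (-1.07 to -0.40). H2-Eb2, a further beta-chain gene of the locus, was at 173 and 205 CPM in migratory DC-like cells, 2.16 and 2.98 CPM in conventional DC-like cells and 0.784 and 0.376 CPM in monocyte/macrophage-like cells.

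Finally, genes with the pattern most like the chains were sought over the same 32 points. Among non-members of at least 100 CPM in 1 point, the 8 with the highest correlation with the summed H2-Aa, H2-Ab1, H2-Eb1 and Cd74 were Hfe (r = 0.936), Prcp (0.934), Olfm1 (0.921), Slamf9 (0.902), Clec4b1 (0.901), Lsr (0.894), Rp2 (0.889) and Shtn1 (0.887). Among the members H2-DMa and H2-DMb1 reached 0.928 and 0.933, H2-DMb2 0.738, H2-Ob 0.391 and H2-Oa 0.296.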

How the data were processed

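Per the labels and headers, the authors deposited for each library a matrix of UMI counts (genes by cells) from Cell Ranger, version 3.0.2 in the matrix headers and another release in the study's methods, on mm10, from 3′ droplet libraries of sorted CD45+ cells of pooled tumors. Here the counts were filtered as the study states, keeping cells of 500 to 15000 UMIs and 200 to 4000 genes whose mitochondrial share was no more than 10%. The members and gene lists were chosen with earlier results of these data known. The 2000 most variable genes, without class II, other H2 and interferon-related genes, gave 15 principal components, a graph of 20 neighbors and Leiden clusters at resolution 1 (leidenalg 0.10.2, scikit-learn 1.9.0). Clusters were named from fixed marker lists by thresholds set after the clusters were seen, and rebuilt names may differ from the study's. Scrublet called 0 and 3 cells, too few to have worked, so doublets were kept, and a rule of 3 markers each of 2 unlike lineages served as an alternative. Levels are the sums of UMIs over the cells of a class, by library, per 1000000. Log2 ratios have 0.5 UMI added to each sum, and a gene counts as past the fold at 1.5-fold with at least 20 UMIs over both libraries. Intervals are exact Poisson for levels, conditional binomial for ratios and Clopper-Pearson for shares. 3′ libraries count each molecule once, whatever the length of its transcript. The ratio script was tested on simulated data. Named genes were the members, the genes of the fixed pathway lists, and the 8 non-members most correlated with the chains and Cd74. A deposited table of log2(CPM + 1) values was not used. Results for some genes of the pathway lists are not reported here.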

Additional observations from a re-analysis of the deposited data

Results flagged for a closer look

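In 5 results the difference between the libraries went in opposite directions in 2 cell classes, each beyond its own counting interval. The difference between classes was not tested, since each group was 1 library. Between monocyte/macrophage-like and conventional DC-like cells the log2 ratios, control over NK cell-depleted, differed by 0.30 for H2-Ab1 (0.12 and -0.18) and by 0.27 for the class II sum (0.15 and -0.12). Between monocyte/macrophage-like and B-like cells they differed by 0.73 for H2-Ab1 (0.12 and -0.61), by 1.37 for H2-Ob (0.41 and -0.96, the former turning to -0.046 with clusters weighted equally and to -1.65 with the neutrophil-like level subtracted) and by 0.52 for the class II sum of all 10 genes (0.15 and -0.37).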

How the results depend on the processing

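With 1 library per group, counting error is widest for the low genes (H2-Oa, H2-Ob and H2-DMb2) and for the B-like and migratory DC-like classes, thinning moved Ciita, Cd74, H2-Ab1, H2-Eb1 and H2-DMb2 in monocyte/macrophage-like cells as well, and nothing here measures the spread between tumors. No paired analysis was possible because each group was 1 library. Of 77 alternative values of the 8 main results, 55 stayed within the counting interval of the main value (for a median, that of the members at its middle, which is wide) and 22 moved. The members' median log2 ratio kept its sign under every alternative in each of the 4 classes, from 0.06 to 0.42 in monocyte/macrophage-like, -0.19 to -0.02 in conventional DC-like, 0.16 to 0.51 in migratory DC-like and -0.64 to -0.16 in B-like cells, where the values with doublets left out and thinned rest on 4 members. In monocyte/macrophage-like cells the thinned value and that with the neutrophil-like level subtracted rest on 9 members. The members' median moved once, to 0.51 in migratory DC-like cells of at least 1000 UMIs and at most 5% mitochondrial UMIs. That filter left no B-like cluster and so gave no value there. The share of class II UMIs in monocyte/macrophage-like cells went from 75.5% and 72.3% (control and NK cell-depleted) to 78.9% and 75.6% under it, to 75.8% and 73.7% without upper limits, to 69.8% and 68.3% at resolution 2, to 76.8% and 72.7% with doublets left out and to 75.2% and 71.8% thinned to 2000 UMIs. It was 75.8% in the control library with all variable genes in the clustering and 71.8% in the NK cell-depleted library at resolution 0.5. The highest over the lowest level among states, 12.4 and 11.7 times, was 4.41 and 5.26 at resolution 0.5, 34.2 and 31.3 with all variable genes in the clustering, 11.9 and 12.9 without upper limits and 11.2 and 11.0 thinned, and 12.3 in the NK cell-depleted library at resolution 2. Among single members in monocyte/macrophage-like cells, weighting all 11 clusters the same turned H2-Aa to 0.086, H2-Eb1 to 0.079 and H2-Ob to -0.046. Subtracting the level in neutrophil-like cells turned H2-Ob to -1.65, the cause of which was not tested. H2-DMb2 went from 0.50 to 0.94 thinned and to 1.16 under that subtraction, and Ciita from 0.52 to 0.31 thinned. The levels subtracted rest on few UMIs. Neutrophil-like cells held 3 H2-Ob UMIs in the control library, and 0 (control) and 6 (NK cell-depleted) of H2-DMb2. The rule for doublets marked 86.0% and 91.9% of B-like cells, 46.9% and 46.6% of T-like cells and 1.16% and 0.571% of monocyte/macrophage-like cells. An alternative chosen after seeing the data left out the sub-cluster with monocyte markers and the plasmacytoid DC-like cells. With it the members' median in conventional DC-like cells was -0.03, of the same sign, and single members were not computed.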

Other observations

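Small mixed clusters that were left unnamed carried class II UMIs as well. A cluster of 19 and 21 cells with neutrophil genes and monocyte/macrophage genes among its leading genes had 10152 CPM (control) and 3601 CPM (NK cell-depleted) of the 10 genes together. One of 25 and 8 cells with T cell and macrophage genes had 12369 and 8182 CPM. By the rule of 3 markers each of 2 unlike lineages, 100% of the cells of the former were marked in both libraries, and 96% and 100% of those of the latter. The rule is not specific, since it also marked 46.9% and 46.6% of T-like cells and 37.0% and 31.3% of neutrophil-like cells. It marked 61.0% of control NK-like cells, and 14.3% and 8.01% of all cells. Melanoma-like cells, 59 and 71 in number, had 1372 CPM (215 UMIs) and 306 CPM (94 UMIs), with 0 Ciita UMIs in either library, which allows up to 3.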
